A study of Arabidopsis thaliana with 6 samples.

Results

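The 8 genes described here belong to the jasmonate pathway of Arabidopsis thaliana and were picked by name, by a rule that uses no measured value but was set with earlier results of these data known, out of 22746 probe sets other than controls. They are the synthesis genes LOX2 (AT3G45140), AOS (AT5G42650) and OPR3 (AT2G06050), the repressor genes JAZ1 (AT1G19180) and JAZ10 (AT5G13220), and the defence genes VSP2 (AT5G24770), PDF1.2 (AT5G44420) and THI2.1 (AT1G72260). Each was read from 1 probe set of the Affymetrix ATH1 array. The probe sets of PDF1.2 and THI2.1 were found by locus in the platform's gene table, and the other 6 by their given probe set IDs, which that table does not list.

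RNA came from whole soil-grown plants, roots included, and was hybridised to 6 arrays, 3 of wild type (WT) and 3 of rli, a line labelled as carrying a T-DNA insertion in RLI. RLI is a conserved ATP-binding protein of the ABCE class that takes part in ribosome recycling, and RNA stability is the topic the series title names. Only transcript levels at harvest were measured. The labels give WT the developmental stage 3.20 and rli the stage 1.14, with weeks written after both numbers. Whether they are ages or codes of growth stages is not settled by the labels, and no age is read from them. The stage label follows genotype exactly, so genotype and labelled stage cannot be told apart in any difference below. All 6 samples share the source name Co-1 and a stock code. The labels name neither the affected RLI locus nor the number of plants per sample, and they do not say that replicates came from separate plants, so a p-value here may reflect technical spread alone. The insertion was not checked against an RLI transcript, since no probe set was named for one.

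Jasmonates are lipid hormones of wounding, of defence against insects and necrotrophic fungi, and of stamen development. Plastid enzymes, LOX2 and AOS among them, convert a fatty acid to a cyclic intermediate that OPR3 reduces in the peroxisome. The isoleucine conjugate of jasmonic acid binds the COI1 receptor together with a JAZ protein, the JAZ protein is degraded, and the transcription factors it held are freed. The MYC factors activate wound genes such as VSP2 as well as the JAZ genes themselves, and factors of the ERF family, which also need ethylene, activate defensin genes such as PDF1.2.

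Values are linear MAS5 intensities scaled to the same trimmed mean on all arrays. Their medians still differed, at 35.8, 36.6 and 53.0 in WT replicates 1 to 3 and 45.8, 38.2 and 46.4 in rli replicates 1 to 3. Differences are rli minus WT in log2 intensity ± the standard error from limma, with 3 arrays per group. Adjusted p-values come from the same limma fit, by the Benjamini-Hochberg method across the 13648 probe sets bright enough to test, and the threshold is 0.05. WT replicate 3 stood apart from the other arrays. Its mean correlation across probe sets with the other WT arrays was 0.758, against 0.837 to 0.840 for WT replicates 1 and 2 and 0.872 for each rli array. Results are therefore also given without it. As a check of the tissue, the leaf gene RCA, the activase of Rubisco, read 5613 to 6301 in WT and 4079 to 5571 in rli. Every rli array thus lay below every WT array, as in 1762 of the 13648 tested probe sets. The root gene PYK10 read 855 to 1137 in WT and 1076 to 1254 in rli, and its groups overlapped. Their differences were -0.39 ± 0.20 (adjusted p = 0.30) and 0.21 ± 0.19 (adjusted p = 0.60). RCA was the only 1 of 4 leaf markers with a named probe set, and PYK10 the only 1 of 8 root markers. A single gene per tissue cannot settle the share of that tissue. The part of the lower RCA mean in the results below was not tested. No flower marker was analysed here. In whole plants, a change in the share of a cell type and a change in RNA per cell cannot be told apart.

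All 8 genes had a higher mean in rli, and 5 of the 8 rose past the threshold, namely OPR3, JAZ1, VSP2, PDF1.2 and AOS. Of all tested probe sets 4.27% rose past it and 53.3% had a higher mean in rli. In 6 of the 8 genes, those 5 and LOX2, every rli array read above every WT array, as it did in 15.2% of all tested probe sets. The median difference of the 8 genes was 1.41, and that of all tested probe sets 0.04. All 8 passed the filter on dim probe sets, and the WT mean of each also lay above its level. The order of the differences ran from OPR3 through JAZ1, VSP2, PDF1.2, AOS, THI2.1 and LOX2 to JAZ10, and this order was not tested. Without WT replicate 3, the 5 genes and LOX2 passed, in a fit that called 15.3% of all probe sets in either direction. The count was 3 without WT replicate 1, WT replicate 2 or rli replicate 2 (THI2.1 among the last 3), 4 without rli replicate 1 and 2 without rli replicate 3. In that order, these fits called 3.66%, 4.06%, 3.41%, 2.93% and 2.81% of all tested probe sets in either direction. After median centring of the arrays OPR3 alone of the 8 stayed past the threshold, in a fit that called 2.43%, and without the intensity trend AOS and PDF1.2 lost their calls (adjusted p = 0.078 and 0.080).

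**Figure D1:**
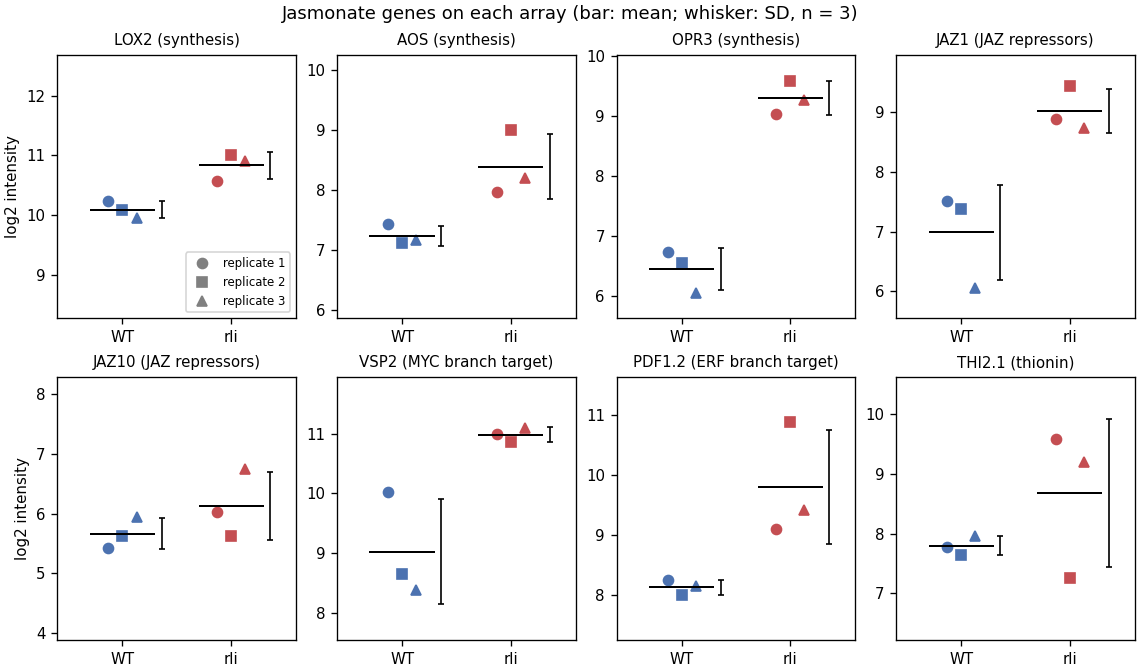
Each panel shows log2 intensity on the vertical axis for WT and rli, with a symbol per array, the group mean as a bar and the SD (n = 3) as a whisker. All panels span the same number of log2 units from different starting levels, and the groups are apart in 6 panels and overlap in those of JAZ10 and THI2.1.

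Of the synthesis genes, AOS and OPR3 rose and LOX2 missed the threshold. LOX2, the plastid lipoxygenase that oxidises the fatty acid, read 1207, 1085 and 989 in WT replicates 1 to 3 and 1529, 2053 and 1924 in rli replicates 1 to 3. The rli arrays all lay above the WT arrays, with the nearest pair 1.27-fold apart. The difference of 0.74 ± 0.20, a 1.67-fold ratio with a 95% interval of 1.23 to 2.26, had an adjusted p of 0.053 and so missed the threshold. LOX2 passed in 5 of 17 alternative settings, among them the fit without WT replicate 3, at 0.67 (adjusted p = 0.021). That fit called 15.3% of all probe sets. LOX2 passed in no other fit with 1 array left out (highest adjusted p = 0.21).

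AOS, the cytochrome P450 that acts on the product of lipoxygenase, read 172, 139 and 144 in WT and 249.6, 511 and 295 in rli. The groups did not overlap, and rli replicate 2 lay well above the other rli arrays. AOS rose by 1.15 ± 0.27 (adjusted p = 0.036), or 2.22-fold with an interval of 1.45 to 3.38. Its call was lost without WT replicate 1 or 2 (adjusted p = 0.076 and 0.10) and without rli replicate 2 or 3 (0.086 and 0.093), and its difference without rli replicate 2 was 0.84. Without WT replicate 3 it was 1.12 (adjusted p = 0.015).

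OPR3, the peroxisomal reductase, read 106, 93.9 and 66.4 in WT and 528, 773 and 620.1 in rli. The lowest rli array was 4.96-fold above the highest WT array, the widest gap among the 8 genes. OPR3 rose by 2.86 ± 0.24 (adjusted p = 0.00014), or 7.25-fold with an interval of 5.00 to 10.5, and its difference was larger than that of 99.6% of the tested probe sets. OPR3 was the only member past the threshold under all 17 alternative settings, with differences between 2.61 and 3.00. Without WT replicate 3 its difference was 2.66.

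Of the JAZ genes, JAZ1 rose and JAZ10 did not pass the test. JAZ1, a repressor of the MYC factors, read 182, 167 and 66.8 in WT and 474, 693 and 425 in rli. WT replicate 3 stood below the other WT arrays, and all rli arrays stood above WT. JAZ1 rose by 2.03 ± 0.37 (adjusted p = 0.011), or 4.10-fold with an interval of 2.31 to 7.26. Without WT replicate 3 the difference was 1.57 (adjusted p = 0.00045), and without rli replicate 2 it was 1.83 and no longer past the threshold (adjusted p = 0.065).

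JAZ10, a JAZ repressor known for splice forms that resist degradation, read 43.0, 49.3 and 61.6 in WT and 64.8, 49.4 and 107 in rli. The groups overlapped, since rli replicate 2 read below WT replicate 3, and rli replicate 3 alone stood well above. The difference was 0.46 ± 0.32 (adjusted p = 0.46), a 1.38-fold ratio with an interval of 0.84 to 2.25. Its difference was 0.16 without rli replicate 3 and 0.79 with array weights, where it passed (adjusted p = 0.040). The 2 JAZ genes were not tested against each other.

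VSP2, a vegetative storage protein with acid phosphatase activity and a standard readout of the MYC branch, read 1044, 404 and 337 in WT and 2046, 1850.0 and 2189.8 in rli. The rli arrays lay within 1.18-fold of each other, while WT spanned 3.10-fold with replicate 1 highest. VSP2 rose by 1.96 ± 0.37 (adjusted p = 0.013), or 3.88-fold with an interval of 2.19 to 6.87. The probe set carries the suffix that Affymetrix gives to probes matching more than 1 transcript, so other transcripts with the same probe sequences, which may include its near copy VSP1, are not separated from VSP2. The difference was 2.46 without WT replicate 1 and 1.64 without WT replicate 3 (adjusted p = 0.00091 and 0.0034). The call was lost without rli replicate 1, 2 or 3, at adjusted p-values of 0.061, 0.056 and 0.060, with differences between 1.90 and 2.02.

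PDF1.2, a secreted antifungal defensin and a standard readout of the ERF branch, read 303, 255 and 283 in WT and 550.4, 1893 and 683 in rli. WT was narrow, at 1.19-fold from lowest to highest, and rli spanned 3.44-fold because replicate 2 stood far above replicates 1 and 3. PDF1.2 rose by 1.68 ± 0.39 (adjusted p = 0.034), or 3.19-fold with an interval of 1.74 to 5.88. Without rli replicate 2 the difference was 1.13 and stayed past the threshold (adjusted p = 0.0335). The call was lost without WT replicate 1 or 2 (adjusted p = 0.088 and 0.093) and without rli replicate 3 (0.067), with differences between 1.61 and 1.87.

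THI2.1, a cysteine-rich antimicrobial thionin, read 219.8, 199.9 and 249 in WT and 762, 153 and 587 in rli. Replicates 1 and 3 of rli stood above all WT arrays, and rli replicate 2 stood below all of them. The difference was 0.88 ± 0.49 (adjusted p = 0.35), a 1.84-fold ratio with an interval of 0.86 to 3.96. Within rli the gene spanned 4.98-fold, the widest span of the 8 genes in either group. Without rli replicate 2 the difference was 1.59 and passed the threshold (adjusted p = 0.013), as it did with array weights (adjusted p = 0.011).

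The genes did not all follow the same order among the rli arrays. Replicate 2 was the highest rli array for 5 genes, LOX2, AOS, OPR3, JAZ1 and PDF1.2, and the lowest for the other 3, JAZ10, VSP2 and THI2.1. For VSP2 the rli arrays spanned only 1.18-fold, so its order carries little. How often each array was highest over all probe sets was not counted. Against the WT mean, rli replicate 2 stood at 2.76 for PDF1.2 and -0.54 for THI2.1 on the log2 scale, while rli replicate 1 stood at 0.98 and 1.78 and rli replicate 3 at 1.29 and 1.403. Among the WT arrays, replicate 1 was the highest for 6 of the 8 genes, all but JAZ10 and THI2.1. Over all probe sets, rli replicate 2 had the lowest median intensity of the rli arrays (38.2) and WT replicate 1 the lowest of the WT arrays (35.8). The part of these medians in the array orders above was not tested. No batch is given in the labels, and whether handling differed between samples was not tested.

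**Figure D2:**
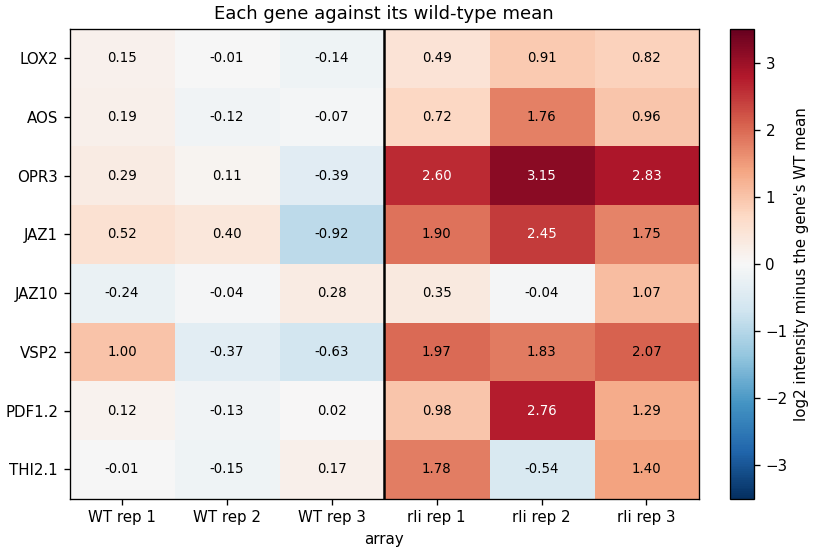
Each cell gives the log2 intensity of a gene (row) on an array (column) minus that gene's WT mean, with red above and blue below it. The column of rli replicate 2 holds the highest value in the rows of OPR3 (3.15), JAZ1 (2.45), PDF1.2 (2.76), AOS (1.76) and LOX2 (0.91) and the lowest in that of THI2.1 (-0.54).

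Of 85 other loci of the pathway, in 5 lists by role, 17 had a named probe set and 9 were bright enough to test. Of these 9, 4 rose and 0 fell past the limma threshold, where 4.27% of all tested probe sets rose. The count was 1 without WT replicate 1 or any 1 of the rli arrays, 2 without WT replicate 2 and 5 without WT replicate 3. The last of these fits called 15.3% of all tested probe sets in either direction, and the others called 2.81% to 4.06%. With all arrays, 5 had an unadjusted p below 0.05, all of them higher in rli, against 11.7% of all tested probe sets that were higher with such a p. The median difference of the 9 was 0.80. Among all tested probe sets 2.53% fell past the threshold. The 4 that rose include PDF1.2b, which is no independent reading beside PDF1.2. The lists were chosen with earlier results of these data known. Most of the pathway, the AOC, other LOX and other JAZ genes and MYC2 included, was not analysed here.

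Among synthesis genes, OPCL1, the ligase that activates the product of OPR3 for beta-oxidation, read 225, 258 and 138 in WT and 404, 536 and 432 in rli. It rose by 1.18 ± 0.26 (adjusted p = 0.025) and, like OPR3, had no rli array within the WT range. Its call was lost without WT replicate 1 (adjusted p = 0.061) and without any 1 of the rli arrays (highest 0.11). AIM1, a beta-oxidation enzyme and the other tested synthesis gene, stood at 0.30 ± 0.27 (adjusted p = 0.59).

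Among genes of signalling, ORA47, an AP2/ERF transcription factor that activates jasmonate synthesis genes, read 21.8, 31.9 and 54.7 in WT and 512, 329 and 313 in rli. It rose by 3.48 ± 0.34 (adjusted p = 0.00034) and was past the threshold under all 17 alternatives. MYC3, a MYC factor bound by JAZ proteins, read 74.5, 76.5 and 74.8 in WT and 109, 159 and 136 in rli. MYC3 rose by 0.82 ± 0.21 (adjusted p = 0.048), close to the threshold, and lost the call without any 1 array other than WT replicate 3 (highest adjusted p = 0.17), after median centring, with no filter, with the filter at the 20th percentile, after quantile normalization and without the intensity trend. Its relative MYC4 stood at -0.04 ± 0.24 (adjusted p = 0.95), with an interval of -0.56 to 0.49.

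Among genes of turnover, JOX2, an oxidase that inactivates jasmonic acid, read 103, 129.6 and 101 in WT and 180.0, 234 and 169 in rli. The groups did not overlap, but its difference of 0.80 ± 0.21 missed the threshold (adjusted p = 0.056) and passed without WT replicate 3 (adjusted p = 0.033). JOX2 passed in 4 of 17 alternative settings, but in no other fit with 1 array left out (highest adjusted p = 0.17). JOX4, of the same family, read 26.1, 39.2 and 51.3 in WT and 7.36, 49.9 and 43.9 in rli. The groups overlapped, and JOX4 stood at -0.57 ± 0.70 (adjusted p = 0.72), with the sign turned without rli replicate 1 (0.32).

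In the ERF branch, PDF1.2b, a near copy of PDF1.2, read 261, 306 and 413 in WT and 674, 1602 and 664 in rli. It rose by 1.48 ± 0.34 (adjusted p = 0.032) and, like PDF1.2, was highest in rli replicate 2. The suffix of its probe set marks probes that may cross-hybridise, so it is no independent reading beside PDF1.2. Its call was lost without any 1 array other than WT replicate 3 (highest adjusted p = 0.12). EIN3, the ethylene transcription factor, stood at 0.10 ± 0.24 (adjusted p = 0.86). Of the other MYC branch genes only BSMT1 had a named probe set, which was too dim to test.

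Salicylic acid often acts against the jasmonate pathway, and of 10 loci of its defence list 1 could be tested. GRX480, a glutaredoxin known to repress PDF1.2 when overexpressed, read 78.9, 76.3 and 43.5 in WT and 109.5, 152 and 141 in rli. The groups did not overlap, and its difference of 1.05 ± 0.27 just missed the threshold (adjusted p = 0.0503). Without WT replicate 3 it was 0.78 and passed (adjusted p = 0.028), in a fit that called 15.3% of all probe sets. GRX480 passed in 7 of 17 alternative settings, but in no other fit with 1 array left out (highest adjusted p = 0.17).

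**Figure D3:**
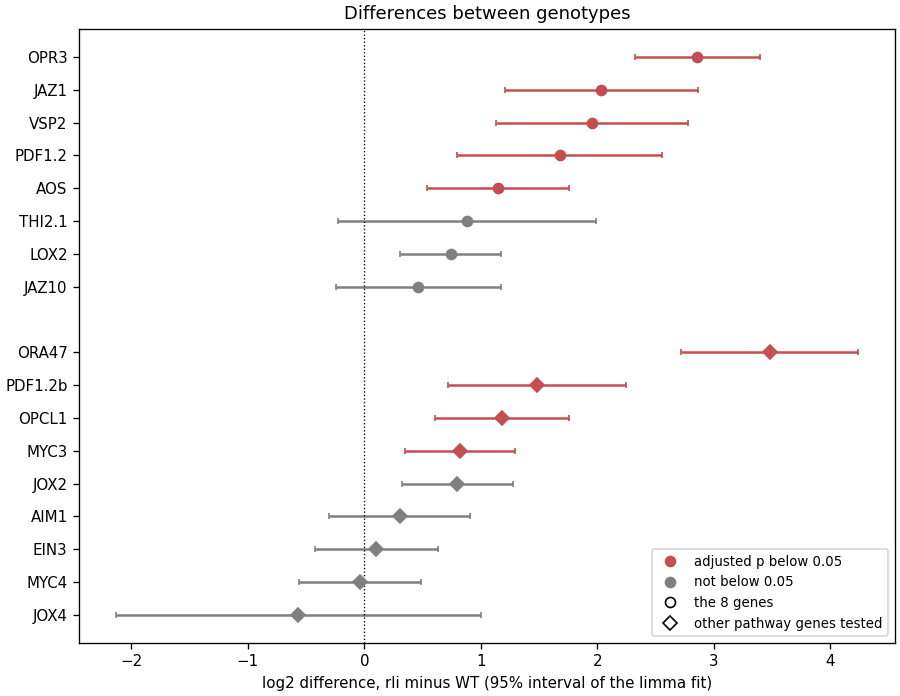
Points give the log2 difference, rli minus WT, and bars its 95% interval from the limma fit, for the 8 genes (circles) and the 9 other pathway genes tested (diamonds), in red where the adjusted p was below the threshold. OPR3 (2.86) and ORA47 (3.48) lie farthest to the right, and the intervals of THI2.1 and JAZ10 among the 8 genes cross 0.

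The genes most like LOX2, VSP2 and PDF1.2 in their pattern were found among 7290 other tested probe sets with a single named gene, as those with the smallest root mean square difference in log2 intensity over the 6 arrays after centring each on its own mean. Closest to LOX2 were AT5G45350 (0.10), MYC3 (0.10) and AT1G28190 (0.11). AT5G45350 read 499, 479.7 and 451 in WT and 729, 853 and 744 in rli, with rli replicate 2 highest and replicate 1 lowest as in LOX2.

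Closest to VSP2 were AT4G29700 (0.26), AT1G66250 (0.31) and CSA1 (0.31), an immune receptor of the TIR class. All 3 were highest in replicate 1 among the WT arrays, as VSP2 was. Among the rli arrays VSP2 and AT1G66250 were highest in replicate 3, and AT4G29700 and CSA1 in replicate 1. AT4G29700 read 53.6, 28.6 and 24.1 in WT and 194, 118 and 163 in rli. Closest to PDF1.2 were PDF1.2b (0.29), AT3G23550 (0.29) and AT5G05250 (0.29), all highest in rli replicate 2. AT3G23550 read 215, 208 and 179 in WT and 555, 1006 and 531 in rli. These patterns are a description over 6 arrays that fall into 2 groups, and the genes share the arrays and their scaling. The genes were picked for closeness over these same arrays, so a shared highest or lowest array follows from the choice and is no separate result.

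**Figure D4:**
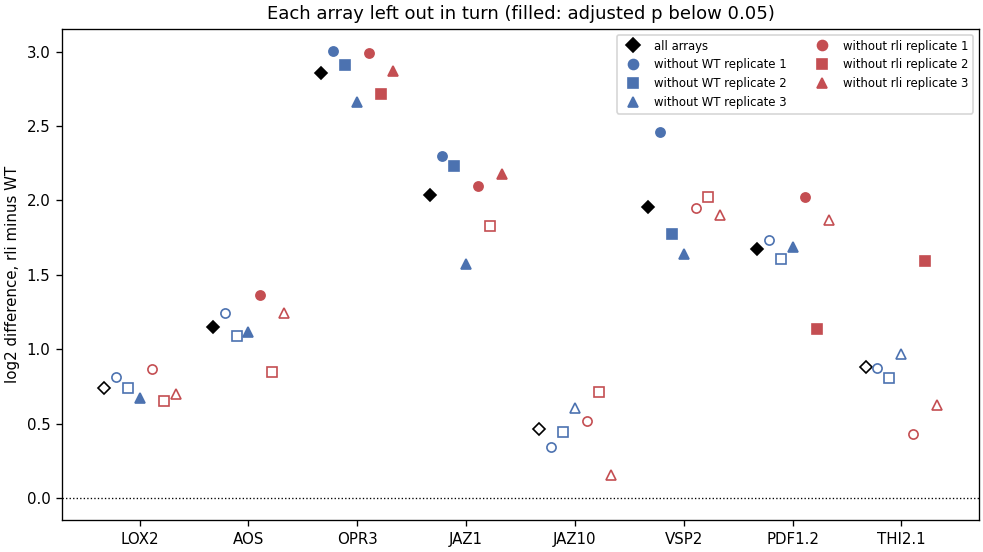
The vertical axis gives each gene's log2 difference, rli minus WT, with all arrays (black) and with each array left out in turn (blue for a WT array, red for an rli array), filled where the adjusted p was below the threshold. OPR3 is filled throughout, while THI2.1 ranges from 0.43 without rli replicate 1 to 1.59 without rli replicate 2.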

How the data were processed

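The deposited values are linear intensities per probe set. The submitters' processing notes name MAS5 and GCOS for them, and versions are not given in the sources used here. With 2% of probe sets trimmed at either end, each array had a mean of 100.01, so intensities were used as deposited, on the log2 scale. No detection calls were used.

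Testing left out 64 control probe sets and those whose mean log2 value was under the 40th percentile (4.63, an intensity of 24.7). The comparison used limma 3.58.1 under R 4.3.3 (eBayes with an intensity trend), two-sided, on genotype alone, and the scripts were tested on simulated data. Groups and replicate numbers come from the sample titles. Genes were named through the platform's gene table and RefSeq (TAIR10.1), with the brightest probe set per locus, except 6 members named by probe set ID. Members and lists were chosen with earlier results of these data known. The text names the 8 members, the pathway genes past the threshold in each list (or the 2 with the smallest p) and the 3 nearest patterns. AIM1, MYC4, EIN3, RCA and PYK10 were added to complete their lists, and JOX3 was added after its values were seen. Alternatives changed the normalization, filter, offset (2.45), floor (9.34), variance model, array weights, replicate block and arrays used. Python 3.11.15 with matplotlib 3.10.9 drew the figures. The number of arrays limits the precision, and no sequences were used here.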

Additional observations from a re-analysis of the deposited data

How the results depend on the processing

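Of all tested probe sets 928 changed (6.8%, with 583 up and 345 down), with 5 of the 8 members and 4 of the 9 other pathway genes. Median centring gave 332 changed (2.43%, with 227 up and 105 down), with 1 member (OPR3) and 1 pathway gene (ORA47). Without the intensity trend 593 changed (4.34%) and 182 fell, with 3 members (OPR3, JAZ1 and VSP2) and 1 pathway gene. Array weights gave 3181 (1719 up, 1462 down) and called all 8 members, where 23.3% of all probe sets were called. With single arrays left out the count ran from 383 (2.81%, rli replicate 3 left out) to 2084 (15.3%, WT replicate 3 left out). These fits gave 275 to 1189 up and 103 to 895 down, with 2 to 6 members and 1 to 5 pathway genes. The cause was not tested. No member changed sign in the 17 alternatives. Of the pathway and defence genes OPCL1, JOX2, JOX4, MYC3, ORA47, PDF1.2b and GRX480, which were refitted under them, JOX4 did, with values from -1.06 without rli replicate 2 to 0.32 without rli replicate 1. The highest adjusted p over the alternatives was 0.0053 for OPR3, 0.072 for VSP2, 0.092 for JAZ1, 0.15 for PDF1.2, 0.25 for AOS and 0.38 for LOX2, each after median centring. A fit with replicate block called 1300 probe sets (9.53%), 5 members and 5 pathway genes. JOX2 and GRX480 passed in that limma fit (adjusted p = 0.0335 and 0.030). Deviations of same-numbered samples correlated at -0.09, 0.33 and 0.32, so the numbers are not taken to pair the samples.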

Other observations

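JOX3, another oxidase that inactivates jasmonic acid, was too dim to test and is named after its values were seen. It read 15.4, 8.40 and 13.4 in wild type and 28.7, 24.7 and 52.5 in rli, so the groups did not overlap, and its WT mean lay below the filter level. Of all tested probe sets, 15.2% also had every rli array above every WT array. That share leaves out probe sets as dim as that of JOX3, for which it was not counted. The other 7 pathway genes too dim to test, DGL, JMT, JOX1, BSMT1, PDF1.1, PDF1.4 and THI2.2, overlapped between groups. The log2 differences of DGL, JMT, JOX1 and BSMT1 were 0.67, 0.52, 1.88 and 0.10. Those of PDF1.1, PDF1.4 and THI2.2 were -0.43, -0.63 and -0.99.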
